A study of Mus musculus with 6 samples.

Results

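Intronic circRNAs are RNA circles that the study's annotation assigns to introns of a host gene. Members were the entries typed as intronic in the study's annotation table of detected circRNAs, after leaving out those for the genes Rn45s, Gm26917, Anks1b and Kcnma1, and they were joined to the arrays by probe name. The table was held in part, with 1734 circRNAs, each read by 1 probe, of which 94 were intronic. Leaving out 1 for Anks1b and 2 for Kcnma1 gave 91 intronic circRNAs, 5.25% of those held. They were compared with the 1338 exonic circRNAs of the same table, whose circles are built from exons.

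The study asked which circRNAs differ in microglia, the resident macrophages of the brain, between wild-type (WT) and APP/PS1 mice. Cortical microglia were collected with CD11b antibody beads from male mice at 6 months of age, their RNA was digested with RNase R, which removes linear RNA, and each sample was labelled with Cy3 by random priming and hybridised to its own circRNA array. There were 3 WT and 3 APP/PS1 arrays, each experiment from different donor mice. The WT mice were of the C57BL/6J strain, and the APP/PS1 mice carried 2 transgenes, a chimeric mouse and human APP with the Swedish mutation and a mutant human PS1, so that they model amyloid disease driven by added mutant genes. The labels name no treatment for either group. CD11b is also carried by other myeloid cells, and in such bulk samples fewer cells of a type and less RNA per cell cannot be told apart.

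Circles from introns arise in several ways. A spliced intron lariat can escape debranching at its branch point, a back-splice can join cryptic sites inside a long intron, and short stable RNAs excised from introns, such as small nucleolar RNAs (snoRNAs), can be picked up as circles. Intron-derived circles are often held in the nucleus near their host gene, whereas circles made of exons are mostly exported to the cytoplasm.

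The members came from 20 chromosomes, with 43 on the plus and 48 on the minus strand, and their listed lengths ran from 61 to 216837 nt with a median of 2799 nt, against 599 nt for exonic circRNAs. For an intronic circle the listed length was the whole genomic span. A length of up to 200 nt was listed for 18 members, more than that and up to 2000 nt for 24 and over 2000 nt for 49, whereas 1202 of the 1338 exonic circRNAs fell in the middle class. A gene symbol was given for 79 members, with 76 different symbols. In RefSeq's annotation of GRCm38.p6, 70 members lay inside the gene of that name, 4 lay outside it and 5 symbols had no match on that chromosome; the table itself names no genome build and the array header names mm9.

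MicroRNA genes entered the list in 2 ways, and the mature sequences are shown to identify the microRNAs that the entries name or hold. The members mmu_circRNA_24032, mmu_circRNA_43431 and mmu_circRNA_35924 were listed under Mir8115, Mir5098 and Mir3473f as hosts, yet their circles lie on chromosomes 11, 8 and 3, while RefSeq places these microRNA genes on chromosomes 5, 5 and 1. RefSeq had Trim37, Nfat5 and Ap4b1 at the positions of the circles. In contrast, mmu_circRNA_41529, listed under the unnamed locus XLOC_022800, spans 99545 nt of chromosome 7 (chr7:61714646-61814190, minus strand, coordinates as listed) and holds 5 hairpins of the Mir344 family on the same strand by RefSeq. The mature sequences from RefSeq (GRCm38.p6) are given 5′ to 3′ with the seed, bases 2 to 8, in capitals.
miR-8115: cCGCAAUAgcaacaagggcucu
miR-5098: gUUACAUGgugaagcccaguu
miR-3473f: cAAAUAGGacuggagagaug
miR-344d-3p: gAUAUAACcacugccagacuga
miR-344e-3p: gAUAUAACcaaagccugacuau
miR-344h-3p: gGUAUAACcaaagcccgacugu
miR-344b-3p: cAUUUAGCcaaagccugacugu
miR-344e-5p and miR-344h-5p: cAGGCUUCuggcuauauucc
miR-344d-3-5p: aGUCAGGCuagugguuauacucc
miR-344b-5p: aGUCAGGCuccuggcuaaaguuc

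Within the Mir344 cluster, miR-344d-3p and miR-344e-3p share the seed AUAUAAC, miR-344e-5p and miR-344h-5p share AGGCUUC, miR-344d-3-5p and miR-344b-5p share GUCAGGC, and the miR-344h genes at 2 places carry the seed GUAUAAC. The 3 microRNAs named as hosts share no seed with each other or with that family.

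Measured values are log2 of the scanner's background-corrected spot signal after quantile normalization, and a difference is APP/PS1 minus WT on that scale. Probes had to be called well above background by the scanner on 3 or more arrays to be kept. All 91 members were kept, as they had to be, since the table lists detected circRNAs. Of these, 75 (82.4%) were well above background on all 6 arrays, 10 on 5, 5 on 4 and 1 on 3, against 85.3% on all 6 arrays for exonic circRNAs and 88.6% for all kept probes. By array, 78 members were well above background on WT replicate 1 and 83 on APP/PS1 replicate 1, but 89 to 91 on the other arrays.

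In APP/PS1 microglia 2 intronic circRNAs, hosted by Gm21992 and Gab2, were upregulated, and 0 were downregulated, at a fold change of at least 1.5 and an unadjusted limma p below 0.05. These 2 of 91 members are 2.2%, beside 726 kept probes or 5.41% called in either direction (3.15% higher and 2.26% lower). The split over all probes turned to 331 higher and 422 lower with scaling to the 75th percentile. Without APP/PS1 replicate 1 it was 355 higher and 508 lower. Among exonic circRNAs 33 were upregulated and 26 downregulated, 4.41%. After Benjamini-Hochberg adjustment over all probes 0 members and 0 probes passed 0.05 by limma, with 9 members and 2384 probes at an unadjusted p below 0.05, and the lowest adjusted p was 0.124. The kind of test the study used, run on each probe alone over the values normalized here, gave 1 member past both thresholds, beside 484 or 3.61% of all probes. It gave 9 members and 2072 probes at an unadjusted p below 0.05, and 0 members and 4 probes after adjustment.

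The larger difference belonged to mmu_circRNA_32184, a 9325-nt circle (chr19:4776243-4785567, minus strand) inside Gm21992, a predicted protein-coding gene that overlaps Rbm4 and Rbm14, which encode RNA-binding proteins. Its normalized log2 signal read 10.16, 10.20 and 10.04 in WT replicates 1 to 3 and 11.62, 10.90 and 10.56 in APP/PS1 replicates 1 to 3. Every APP/PS1 array lay above every WT array, and the APP/PS1 arrays were also further apart, led by replicate 1. The means were 10.13 ± 0.08 in WT and 11.03 ± 0.54 in APP/PS1 (SD, n = 3 each), a log2 difference of 0.89 with a standard error of 0.25, or 1.86-fold, and an adjusted p of 0.154 by limma. This was the second brightest member, with background-corrected spot signals of 863.2 to 2798.9 intensity units. The circle rose past both thresholds under all 15 alternatives, with a log2 difference between 0.60 without APP/PS1 replicate 1 and 1.12 without APP/PS1 replicate 3.

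A different circle of the same host, mmu_circRNA_015638 of 3319 nt (chr19:4784724-4788042), overlaps it by 844 nt. The long circle lies wholly inside Gm21992 only, whereas RefSeq places this shorter circle wholly inside both Gm21992 and Rbm4. Its log2 signal was 5.33, 5.05 and 4.81 in WT and 5.06, 4.74 and 4.33 in APP/PS1. Here the genotypes overlapped and the difference had the opposite sign, -0.35 with a standard error of 0.22 and an adjusted p of 0.448 by limma, so it did not pass. Under the 15 alternatives it ran from -0.53 without APP/PS1 replicate 1 to -0.09 with normexp correction, with -0.16 without APP/PS1 replicate 3 and -0.22 without WT replicate 1. The pair share a host and part of their sequence, yet only the long circle was called, and the difference between the 2 changes was not tested.

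Gab2 encodes a scaffolding adaptor that links cytokine and growth factor receptors to PI3K and MAP kinase signalling. Its intronic circle mmu_circRNA_003849 is 100 nt long (chr7:97218430-97218529, plus strand). The log2 signal was 4.39, 4.97 and 5.18 in WT and 5.86, 5.61 and 5.21 in APP/PS1. The genotypes did not overlap, but WT replicate 3 and APP/PS1 replicate 3 were nearly level. The mean rose from 4.85 ± 0.41 to 5.56 ± 0.33 (SD, n = 3 each), 1.64-fold, with an adjusted p of 0.204 by limma. This probe was dim, with spot signals of 19.9 to 61.5 intensity units, and its call was lost under 7 of the 15 alternatives. The log2 difference shrank most with other processing of the spot signal, to 0.25 with normexp correction, 0.37 without background subtraction and 0.38 with the authors' processed values. It came to 0.49 when WT replicate 1 was left out, to 0.56 without the first APP/PS1 replicate and to 0.69 without the second, each with an unadjusted limma p above 0.05.

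**Figure D1:**
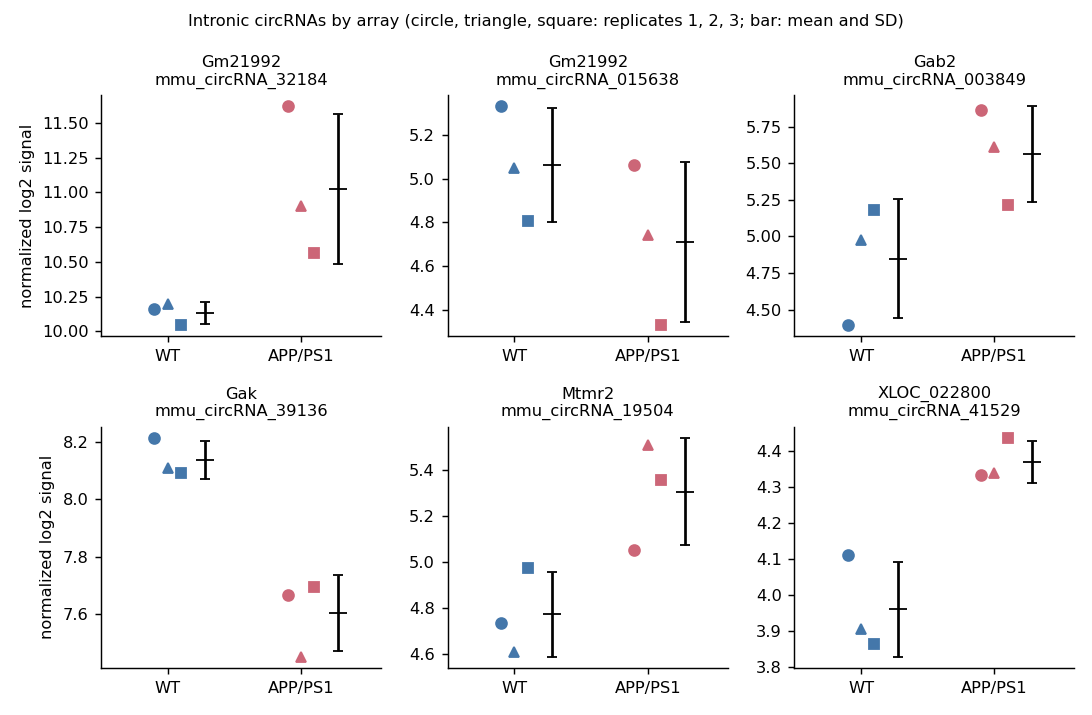
Normalized log2 signal (y axis, a separate range in each panel) of 6 intronic circRNAs in WT and APP/PS1 arrays, with symbols for replicates 1, 2 and 3 and a bar for the mean and SD of 3 arrays. The long Gm21992 circle and the Gab2, Mtmr2 and XLOC_022800 circles lay higher in each APP/PS1 array, Gak lay lower, and the short Gm21992 circle overlapped between genotypes.

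Circles of Gak, Mtmr2, XLOC_022800 and Xpr1 fell short of the thresholds and were chosen after their values were seen. Gak encodes a kinase that helps strip clathrin from coated vesicles, and mmu_circRNA_39136 is a 2799-nt circle in it. Its log2 signal was 8.21, 8.11 and 8.09 in WT and 7.66, 7.45 and 7.69 in APP/PS1. All 3 APP/PS1 arrays were below all 3 WT arrays, and the gap between genotypes was wider than the spread within either. The difference of -0.53 with a standard error of 0.12 was 1.45-fold lower, short of the fold threshold, with an adjusted p of 0.124 by limma, level with the lowest of any probe. Under the 15 alternatives it ran from -0.58 to -0.41.

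Mtmr2 encodes a lipid phosphatase acting on phosphoinositides of endosomes, and its circle mmu_circRNA_19504 has 117 nt. The log2 signal was 4.73, 4.61 and 4.98 in WT and 5.05, 5.51 and 5.36 in APP/PS1. The lowest APP/PS1 array stood just above the highest WT array. The difference of 0.53 (standard error 0.16, adjusted p 0.165 by limma) missed the fold threshold. It passed both thresholds without WT replicate 3 (0.64) and without APP/PS1 replicate 1 (0.66), and it shrank to 0.18 with normexp correction, 0.20 without background subtraction and 0.28 with the authors' processed values, each with an unadjusted limma p above 0.05.

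The XLOC_022800 circle that holds the Mir344 hairpins gave 4.11, 3.91 and 3.86 in WT and 4.33, 4.34 and 4.44 in APP/PS1. Each APP/PS1 array was higher than each WT array at a low signal, and the difference was 0.41 with a standard error of 0.12 and an adjusted p of 0.154 by limma. It was 0.11 with normexp correction and 0.19 with the authors' processed values, with an unadjusted limma p above 0.05 in both, and 0.23 without background subtraction. The probe is listed for the circle, its sequence was not checked, and the mature microRNAs were not measured here. For Xpr1, a phosphate exporter, the signal of mmu_circRNA_21051 was 3.52, 3.49 and 3.47 in WT and 1.89, 3.35 and 3.18 in APP/PS1. APP/PS1 replicate 1 alone was far below the rest, and the probe was well above background on 2 of the 3 APP/PS1 arrays. The difference was -0.68 with a standard error of 0.36, above the unadjusted p threshold by limma. It came to -0.22 without APP/PS1 replicate 1, and it passed both thresholds at -1.01 without APP/PS1 replicate 2. Other processing of the spot signal brought it closer to 0, to -0.07 with normexp correction, -0.12 without background subtraction and -0.15 with the authors' processed values, and the spot of APP/PS1 replicate 1 had a signal of 1.9 intensity units.

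Genotypes did not overlap for 17 of 91 members (18.7%), beside 25.1% of all probes and 24.3% of exonic circRNAs. In APP/PS1 7 of them were higher, beside 12.3% of all probes, and 10 were lower, beside 12.8%. Single probes with complete separation gave an exact permutation p of 0.1, the smallest that 3 against 3 arrays allow. An unadjusted limma p below 0.05 was reached by 9 members, 9.89%, beside 17.9% of exonic circRNAs and 17.8% of all probes. Besides the long Gm21992 circle, Gab2, Gak, Mtmr2 and XLOC_022800 these were the circles listed under Kcnd3 (-0.32), Slc22a14 (-0.27) and E130114P18Rik (-0.34), of which RefSeq places the last 2 in Oxsr1 and Nfia, and the unnamed mmu_circRNA_21244 (-0.37). The median log2 difference over members was 0.02, over exonic circRNAs -0.02 and over all probes -0.01. The median size of the difference was 0.14 over members, 0.18 over exonic circRNAs and 0.17 over all probes. The median moved across 0 to -0.05 with scaling to the 75th percentile, where that over all probes was -0.05 as well, to -0.0045 with the authors' processed values and to -0.0038 with normexp correction. It was also below 0 with single arrays left out, at -0.01 without WT replicate 2, -0.009 without APP/PS1 replicate 2 and -0.006 without APP/PS1 replicate 3. Without APP/PS1 replicate 1 the median over members was instead higher, at 0.07. The share of members called was below that of all probes, and the difference in shares was not tested.

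**Figure D2:**
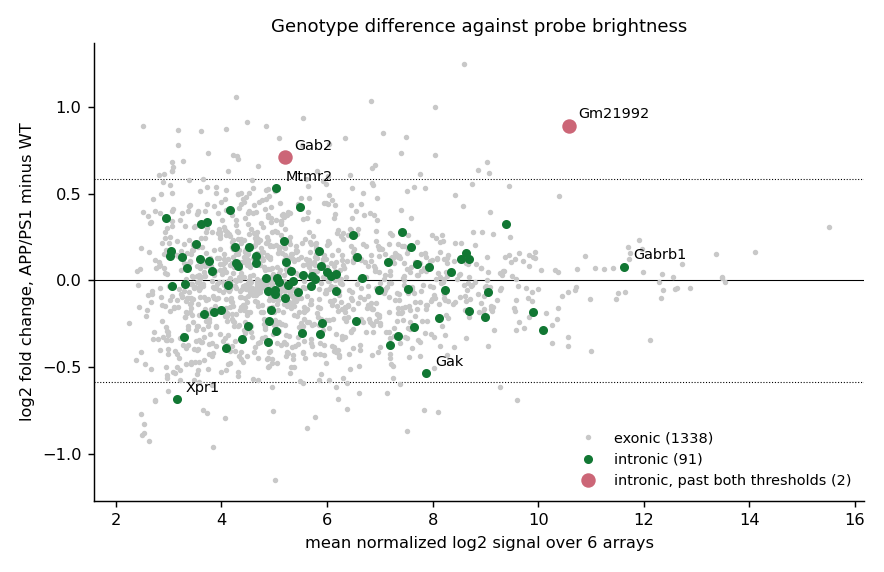
Log2 fold change, APP/PS1 minus WT (y axis), against mean normalized log2 signal over 6 arrays (x axis) for 91 intronic and 1338 exonic circRNAs; dotted lines mark a 1.5-fold change. The long Gm21992 circle at 10.58 and Gab2 at 5.21 are the members past both thresholds, and most members lie within the exonic cloud.

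Brightness depends on how well each probe binds as well as on the amount of RNA, so it is described over classes and no probe is ranked by amount. Across WT replicates 1 to 3 the median log2 signal of intronic circRNAs came to 5.31, 5.37 and 5.32, and across APP/PS1 replicates to 5.40, 5.51 and 5.36. Over exonic circRNAs it was 5.18, 5.24 and 5.26 in WT and 5.21, 5.23 and 5.22 in APP/PS1. The intronic median was above the exonic median on 6 of 6 arrays, by 0.15 ± 0.07 (mean and SD over arrays), from 0.07 on WT replicate 3 to 0.27 on APP/PS1 replicate 2. Both were below the median of 5.67 over all probes. The mean gap came to 0.08 with normexp correction, 0.10 without background subtraction and 0.12 with the authors' processed values.

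The sign of that gap depended on which circles were compared. Within circles of up to 200 nt the intronic median was lower than the exonic by 0.25 (-0.25), within an SD over arrays of 0.28. In the middle length class it was higher by 0.30 (SD 0.10), and over 2000 nt it was lower again (-0.17, SD 0.13). By origin of the entry, the 72 members from the larger of the 2 literature collections were 0.31 above the exonic circRNAs of that collection, whereas the 11 members from circBase differed by -0.35.

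**Figure D3:**
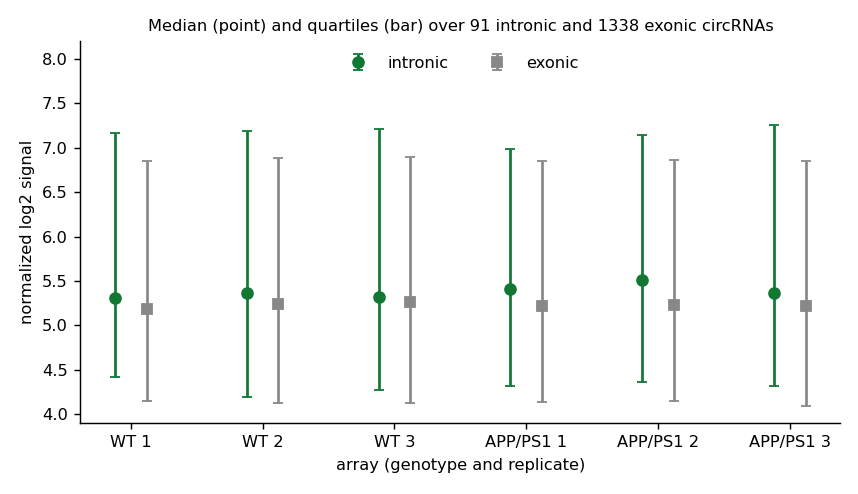
Median (point) and quartiles (bar) of normalized log2 signal (y axis) on each array (x axis) for intronic and exonic circRNAs. The intronic median lies above the exonic on each array by 0.07 to 0.27, well within the quartiles of either type.

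The brightest members were mostly long circles, and 6 of these 8 had a host symbol. Gabrb1, a subunit gene of the GABA-A receptor, hosted the brightest, mmu_circRNA_38753 of 89015 nt. Its log2 signal was 11.616, 11.498 and 11.631 in WT and 11.220, 11.762 and 12.002 in APP/PS1. The APP/PS1 arrays spread to both sides of the WT arrays, and the difference of 0.08 was within its standard error of 0.20. It was 0.30 without APP/PS1 replicate 1 and -0.09 without APP/PS1 replicate 3. Below the long Gm21992 circle came March1, a membrane ubiquitin ligase that lowers surface MHC class II, with a mean of 10.09 and a difference of -0.28, which ran from -0.45 without APP/PS1 replicate 1 to -0.14 without APP/PS1 replicate 2. Upp2, a uridine phosphorylase, followed at 9.89 (-0.18), Map4, a microtubule-associated protein, at 9.38 (0.32) and Brf1, a subunit of the RNA polymerase III initiation factor, at 9.05 (-0.07). The unnamed circles mmu_circRNA_39004 and mmu_circRNA_33863, which RefSeq places in Cnot6l and Gm13707, had means of 8.99 (-0.21) and 8.69 (-0.18). Apart from Gm21992 none of these 8 passed the thresholds. Without APP/PS1 replicate 1 the Upp2 difference came to -0.05 and that of Brf1 to 0.06. The difference of mmu_circRNA_39004 was -0.005 without background subtraction, and that of mmu_circRNA_33863 was -0.08 without WT replicate 1.

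The Map4 circle, 190 nt long, had the pattern most like the long Gm21992 circle over the 6 arrays, with a Pearson r of 0.95. Its signal was 9.15, 9.25 and 9.26 in WT and 9.88, 9.42 and 9.34 in APP/PS1, again with APP/PS1 replicate 1 highest and no overlap. Without that array the Map4 difference of 0.32 came to 0.16. Slco6d1 (0.85) and Zfp53 (0.83) came next. These coefficients were picked as the highest over members and describe 6 arrays only.

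Spread between arrays of a genotype was taken as the residual SD of each probe. Its median was 0.18 over members, 0.19 over exonic circRNAs and 0.18 over all probes, a ratio of intronic to exonic of 0.91. Dim probes were the most variable in both types. In the dimmest of 5 equal brightness classes the median was 0.28 for 21 members and 0.30 for exonic circRNAs, and in the brightest class it was 0.16 for 16 members and 0.16 for exonic circRNAs. The intronic median was the lower in all 5 brightness classes, with ratios from 0.78 to 0.98. By length, members of the middle class had the smallest spread, 0.13 against 0.19, while over 2000 nt the ratio was 1.06. Within circBase the ratio was 1.33 over 11 members, and within the larger literature collection it was 0.85 over 72 members. Over all members it was 0.99 with normexp correction, 0.99 without background subtraction and 0.98 with the authors' processed values.

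**Figure D4:**
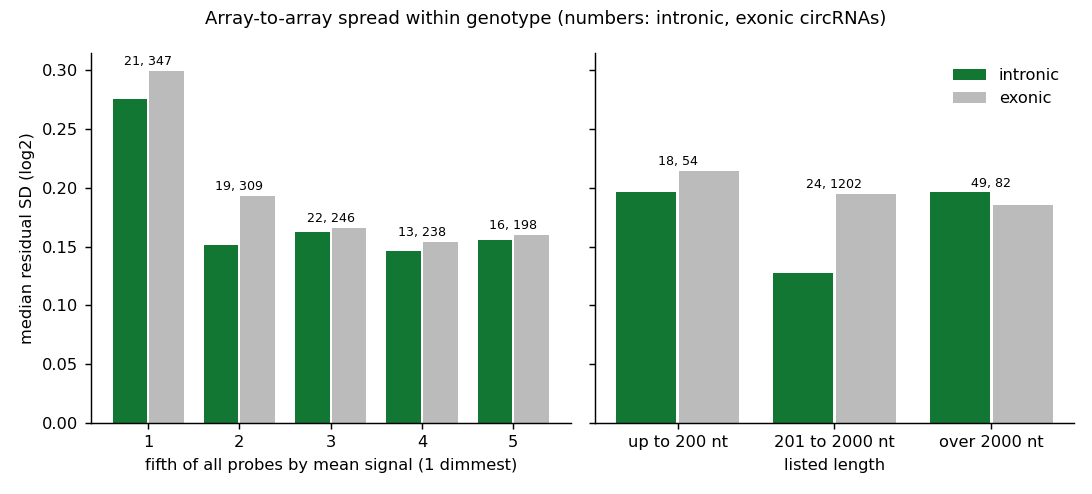
Median residual SD within genotype (y axis, log2 units) of intronic and exonic circRNAs in 5 brightness classes and 3 length classes (x axes), with the number of circRNAs of each type above the bars. The widest gap is in the middle length class, 0.13 against 0.19.

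Among members well above background on all 6 arrays the largest spread was in the circles of Mir3473f, Npas3, Stag1, Gm21992 and Gab2. For the Mir3473f entry the residual SD was 0.52. Its signal was 4.52, 5.74 and 5.58 in WT and 5.42, 6.04 and 5.66 in APP/PS1, so WT replicate 1 was low and the remaining arrays overlapped. Npas3, a brain transcription factor, had a residual SD of 0.44, with 6.90, 6.30 and 6.82 in WT and 7.03, 6.29 and 6.01 in APP/PS1. Stag1, a cohesin subunit, had 0.39, with WT replicate 2 lowest at 2.77. APP/PS1 replicate 1 gave the lowest signal of the APP/PS1 arrays in 54 of the 91 members (59.3%), beside 42.2% of exonic circRNAs, and in 47 (51.6%) WT replicate 1 was the highest of its own, beside 44.9%. These are the arrays with the fewest probes well above background, and the part of that in the differences was not tested beyond leaving each array out.

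Lingo2 and Zbtb20 each hosted a pair of members. Lingo2 encodes a leucine-rich repeat protein of neuronal membranes. Its 1632-nt circle had a mean of 8.34 and a difference of 0.05 (standard error 0.11), and its 5131-nt circle had a mean of 4.28 and a difference of 0.10 (standard error 0.20). Zbtb20, a zinc finger repressor, hosted circles of 63686 nt with a difference of -0.03 (standard error 0.19) and of 876 nt with 0.08 (standard error 0.14). Neither pair differed between genotypes beyond its error, on separate stretches of the host.

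Small RNA genes were overlapped by 5 members. Rps3, a protein of the small ribosomal subunit, hosted mmu_circRNA_016283 of 150 nt, which covered all of the snoRNA gene Snord15a, and 98.7% of the circle was that gene. Its log2 signal was 4.01, 3.85 and 4.00 in WT and 3.37, 3.82 and 4.13 in APP/PS1. The WT arrays were close together and lay within the range of APP/PS1, and the difference was -0.18 with a standard error of 0.19. It was 0.02 without APP/PS1 replicate 1 and -0.36 without APP/PS1 replicate 3. The table also lists mmu_circRNA_19468, typed as exonic and assigned to Snord15a itself, with the same start and 148 nt. That probe read 3.66, 2.54 and 2.39 in WT and 3.30, 3.12 and 3.38 in APP/PS1, a difference of 0.40 with a standard error of 0.32. The same stretch thus carried both types in the table, and neither probe passed the thresholds.

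Rps13, also of the small subunit, hosted mmu_circRNA_015174 of 78 nt, of which 98.7% lay on Snord14a. It had the smallest residual SD of all members, 0.06, with 7.98, 7.83 and 7.85 in WT and 7.97, 7.96 and 7.97 in APP/PS1. Its difference was 0.08 with a standard error of 0.10, and ran from 0.05 to 0.18 under the 15 alternatives. With normexp correction it was 0.16 at an unadjusted limma p of 0.0146, short of the fold threshold. Prrc2a, an RNA-binding protein, hosted a 70-nt circle wholly inside the snoRNA gene Gm23442, with a mean of 8.53 and a difference of 0.12 (standard error 0.12). The remaining hits were the Mir344 cluster and an snRNA gene, Gm24833, within the 216837-nt circle of Ncald, a neuronal calcium sensor, whose mean was 8.64 and difference 0.16. Of the members listed under microRNA hosts, the Mir8115 and Mir5098 circles differed by 0.27 (standard error 0.16) and 0.02 (standard error 0.15). The first came to 0.42 without APP/PS1 replicate 1 and 0.15 without APP/PS1 replicate 3. The second changed sign under 6 of the 15 alternatives. The Mir3473f circle differed by 0.42 (standard error 0.33), which came to 0.04 without WT replicate 1 and 0.66 without WT replicate 2.

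Host genes were sorted into 7 groups by function, and 25 members were left ungrouped. Among 13 members in channels, transporters and neurotransmitter receptors 0 passed the thresholds by limma, beside 5.41% of all probes, and the median log2 difference was -0.08. Drd2, the dopamine receptor nearest to that median, read 5.21, 5.03 and 4.93 in WT and 4.82, 4.98 and 5.14 in APP/PS1, with the genotypes intermixed. Genotypes did not overlap for 4 of the 13 (30.8%), beside 25.1% of all probes, and all 4 were lower in APP/PS1, beside 12.8% of all probes. They were listed under Xpr1, Slc8a1, Slc22a14 and Kcnd3, though RefSeq places the circle listed under Slc22a14 in Oxsr1. Kcnd3, a potassium channel of the A-type current, was the tightest of the 4. Its circle read 7.52, 7.46 and 7.53 in WT and 7.08, 7.26 and 7.23 in APP/PS1. Hosts of neuronal adhesion, synapse and axon signalling had 11 members, with a median of 0.08 and 0 that separated the genotypes, beside 25.1% of all probes. Dlg2, a postsynaptic scaffold, was typical at 0.08 (standard error 0.13), and the range over the 11 ran from -0.05 for Ctnna2 to 0.23 for Syt16.

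Chromatin and transcription had 14 members with a median of 0.08, from -0.39 for Phf3 to 0.28 for Zfp53. The 876-nt circle of Zbtb20 (0.082) and that of Stag1 (0.070) lay on either side of the median. This group held Uty, the Y-linked demethylase gene, at a mean of 3.03 in these male mice. Ribosome and RNA processing had 8 members with a median of 0.06, among them Rbm6, an RNA-binding protein, at 0.04 (standard error 0.17). Membrane traffic, lipids and turnover had 8 members with a median of 0.04, with Cpne1, a calcium-dependent membrane-binding protein, at 0.03 (standard error 0.12). Under the 15 alternatives the Rbm6 difference ran from -0.08 to 0.22 and changed sign under 7. That of Cpne1 changed sign under 6. Cytoskeleton and polarity had 5 members with a median of -0.10, with the formin Fmn1 at -0.10 (standard error 0.11).

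Signalling enzymes and adaptors had 7 members with a median of 0.19, and Gab2, whose call was lost under 7 alternatives, was the 1 that passed (14.3%), beside 5.41% of all probes. Pfkfb2, an enzyme that sets the level of a glycolysis activator, was nearest at 0.19 (standard error 0.12), with its circle outside the RefSeq gene. The circle listed under Fgfr2 (0.33) also lay outside that gene, and RefSeq places it in Eef1akmt2. The group median was thus the value of a circle not placed in its listed host. Gak and Gab2 formed the 2 ends of the group at -0.53 and 0.71. Ungrouped members had a median of -0.05, or -0.13 with scaling to the 75th percentile, and the long Gm21992 circle was their only call (4.0%, beside 5.41% of all probes). Group medians were not tested. With scaling to the 75th percentile those of chromatin (-0.01), membrane traffic (-0.04) and ribosome and RNA processing (-0.005) were below 0, as they were with the authors' processed values (-0.05, -0.02 and -0.01). With the authors' values the median of signalling shrank to 0.02 and that of channels to -0.0003, though with the scaling channels went to -0.18. With the scaling that of neuronal adhesion shrank to 0.003. That of cytoskeleton grew in size under both, to -0.20 with the scaling and -0.19 with the authors' values.

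**Figure D5:**
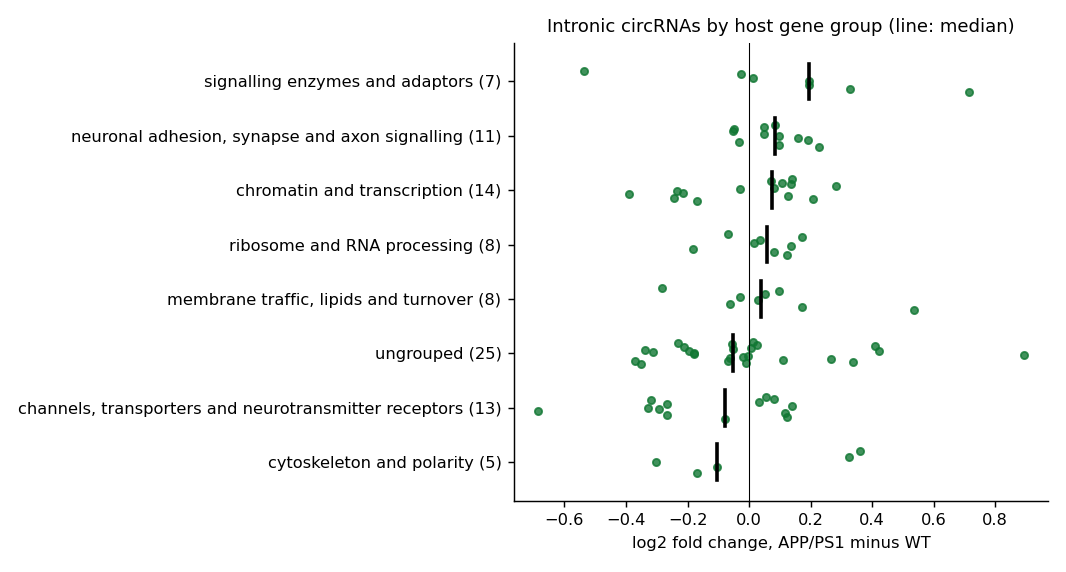
Log2 fold change, APP/PS1 minus WT (x axis), of each intronic circRNA by host gene group (y axis, number of members in brackets), with a line at each group's median. Medians run from -0.10 to 0.19, those of chromatin, membrane traffic and ribosome and RNA processing change sign with scaling to the 75th percentile or the authors' values, where that of signalling is 0.11 or 0.02, and Gab2, Gak, Xpr1 and the long Gm21992 circle stand apart in their groups.

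Other circRNAs of the same hosts, exonic or overlapping the gene in sense, were held for 17 members of 16 genes. By limma 0 of these 16 circRNAs and 0 of the 17 members passed the thresholds, beside 5.41% of all probes. At an unadjusted p below 0.05 there were 3 of the 16 (Pfkfb2, Slc8a1 and Fto) and 0 of the 17, beside 17.8% of all probes. Under Pfkfb2, whose listed intronic circle lies outside the RefSeq gene, that circle read 7.55, 7.41 and 7.50 in WT and 7.52, 7.74 and 7.79 in APP/PS1, and the exonic circle mmu_circRNA_20855 read 7.56, 7.59 and 7.62 in WT and 8.36, 8.06 and 7.95 in APP/PS1. The exonic circle was thus higher in each APP/PS1 array, by 0.54 with an adjusted p of 0.133 by limma, while the intronic circle overlapped between genotypes. Slc8a1, a sodium and calcium exchanger, had lower values of both its intronic circle (-0.27, standard error 0.13) and its exonic circle (-0.43, standard error 0.17). In Fto, an RNA demethylase gene, the intronic difference was 0.02 (standard error 0.12) and the exonic difference -0.43 (standard error 0.16). Whether circles of 1 host differ in their change was not tested.

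On these arrays the identity of the cells could be read only from circRNAs hosted by marker genes. Of 14 microglial markers 3 had a circRNA in the part of the table held, with 4 exonic circRNAs of Inpp5d, Zeb2 and Dock10. Their summed linear signal was 323.5, 321.3 and 283.3 in WT and 282.9, 183.2 and 254.5 in APP/PS1, and Inpp5d was the brightest with a mean log2 signal of 7.19. Neuronal markers had 5 circRNAs of 11 genes, led by Gria1 at 7.90, with sums of 572.9, 468.1 and 510.7 in WT and 444.7, 437.3 and 435.9 in APP/PS1. The single circRNA from 6 astrocyte markers, of Slc1a2, had a mean log2 signal of 9.0, with 583.1, 520.5 and 461.6 in WT and 462.4, 501.1 and 556.4 in APP/PS1 on the linear scale. No probe was held for the 6 oligodendrocyte and 3 endothelial markers. The other 11 microglial markers had no circRNA held, so the microglial label could not be checked against them. Circles of neuronal and astrocyte hosts were thus measured in these CD11b-selected samples. The linear sums of microglial and neuronal markers were lower in each APP/PS1 array than in any WT array, for microglia by a margin of 282.9 against 283.3. The mean log2 signals of the same lists overlapped, with APP/PS1 replicate 1 above WT replicate 2 for microglial (5.47 against 5.44) and for neuronal markers (6.11 against 6.03). By limma 0 of these 10 marker circRNAs passed the thresholds, beside 5.41% of all probes, and 2 had an unadjusted p below 0.05 (Zeb2 and Rims1), beside 17.8%. The part of cell makeup in the differences above was not tested.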

How the data were processed

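Per the file headers, each of the 6 arrays was scanned once on 1 slide and read with Agilent Feature Extraction 11.0.1.1, which gave background-corrected spot intensity values. The 3 WT samples filled the first row of that slide and the 3 APP/PS1 samples the second, so position and genotype cannot be separated. The authors deposited a second table of log2 values, quantile normalized with limma, whose medians per array were 6.20, 6.19, 6.20, 6.19, 6.19 and 6.19; the background step behind it is not given in the sources used here, and it served as an alternative. From the scanner files, log2 processed signals of 14236 circRNA probes were filtered (well above background on at least 3 arrays), outlier spots were left out, arrays were quantile normalized, and APP/PS1 and WT were compared with limma 3.58.1 in R 4.3.3, two-sided, with Benjamini-Hochberg adjustment over all kept probes. Calls needed at least a 1.5-fold change with unadjusted p below 0.05, the thresholds the study used. Per array, 87.0% to 96.9% of circRNA probes were well above background, and the small number of arrays limits the precision. The samples are labelled as separate replicates.

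Named members were all those called, the 8 brightest, the 5 with the largest spread, those sharing a host, those listed under microRNA or ribosomal protein genes, and the member nearest the median of each host group; Gak, Mtmr2, XLOC_022800, Xpr1, Kcnd3, Prrc2a, Slc8a1, Fto and other members outside this rule were chosen after their values were seen. Members and lists were chosen with earlier results of these data known. Only annotation columns of the study's table were used, and RefSeq (GRCm38.p6) served for names and overlaps. Brightness classes are 5 equal classes of all kept probes.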

Additional observations from a re-analysis of the deposited data

How the results depend on the processing

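The count of 2 intronic calls was 1 with normexp correction on the median spot signal, with the median spot signal without background subtraction, with the authors' processed values and with the methods' t-test, each time because Gab2 fell short; leaving out single arrays gave 1 to 3. Over all probes the 726 calls were 193 (133 higher, 60 lower), 287 (197 and 90) and 318 under the first 3 of these, and 609 to 919 with single arrays left out. Scaling to the 75th percentile turned the split of 423 higher and 303 lower into 331 and 422, as did leaving out APP/PS1 replicate 1, with 355 and 508; the cause was not tested. That scaling moved the median intronic difference from 0.02 to -0.0485, and single arrays moved it between -0.01 and 0.07.

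The brightness gap of 0.15 was 0.0785 with normexp, and 0.13 to 0.17 with single arrays left out. Within length classes it was -0.25, 0.30 and -0.17 from short to long, within circBase -0.35 and within the larger literature collection 0.31. The spread ratio of 0.91 was 0.66 in the middle length class and 1.06 over 2000 nt. By origin of the entry it was 1.33 within circBase and 0.85 within the larger literature collection. With single arrays left out it was 0.83 to 0.93. It was 0.99 with normexp, 0.99 without background subtraction and 0.98 with the authors' values, against an SD over arrays of 0.14. The cause was not tested. The smaller literature collection was not run, having 1 exonic circRNA. Of 463 comparisons over 31 named members, 7 lost a call, all of them Gab2, 3 gained one (Mtmr2 and Xpr1), and 40 changed the sign of a value that was not called; the Rps3 and Xpr1 circles had no value when all 6 arrays had to be above background.

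Same-numbered arrays did not pair: their deviations from the genotype means correlated at -0.25, -0.08 and -0.22. With the replicate block 749 probes and 2 members were called, the median intronic difference stayed 0.02, and no call among the members changed. Signal over background limits the dim members, of which 16 were not well above background on every array.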
